A study of Mus musculus with 12 samples.

Results

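Potassium channel subunits were followed in the gastrocnemius, a calf muscle, after section of its nerve supply. They were taken as every gene of the deposited tables whose symbol starts with Kcn, 98 of 25094 genes, 4 of them noncoding transcripts named after a channel gene. Of these, 25 reached a mean of at least 0.5 RPKM (reads scaled by transcript length and library total) in at least 1 of 4 groups and 73 did not, and 22 of the 25 are described below. The 4 groups were the denervated right leg of C57BL/6 mice, the left leg of C57BL/6 mice, the denervated right leg of BALB/c mice and the left leg of BALB/c mice, with 3 libraries of polyadenylated RNA each. All mice were male and wild type, and no age was given in the labels. The right sciatic nerve had been cut and its ends turned back and sewn to muscle 2 weeks before the muscle was taken. Left legs are given as healthy in the labels, although the treatment label of both legs also reads neuron-denervated. Sham surgery appears in the protocol too, but which legs received it is not given, nor is whether right and left libraries share a mouse. Since separate animals are not stated for the libraries of a group, p-values measure only how far these samples scatter, and that scatter may be technical.

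Potassium channels set the resting potential of the muscle fibre and end its action potential. Pore-forming subunits span the membrane around a potassium-selective filter. Voltage-gated (Kv) pores open on depolarization, inward rectifiers (Kir) pass current best near rest, two-pore channels carry background current, and calcium-activated channels (BK and SK) open when cytoplasmic calcium rises. Silent Kv subunits do not form channels alone but join other Kv pores, and beta and KCNE subunits modify pores they bind. Loss of the nerve is classically known to lower the resting potential of muscle fibres and to bring apamin-sensitive SK channels into their membrane.

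Changes are right minus left on the scale of log2(RPKM + 0.5), with their SE. P-values come from limma and were adjusted by the Benjamini-Hochberg method across every gene tested, and rose and fell are used where the adjusted p was under 0.05. The added 0.5 makes changes of genes with low values look smaller than the ratio of their means. Over all tested genes the median change was 0.52 in C57BL/6 and 0.38 in BALB/c. The relative change of a gene is its change minus that median. Where the direction or call of a potassium channel gene described here differed after rescaling by median-of-ratios factors, which removes the shift, this is given with the gene.

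The scaling totals ran from 18132620 to 19282860 reads per library, of which the listed genes held 14826934 to 17323385. The labelled tissue was checked against its markers. The sum of 8 skeletal muscle fibre genes was 47808 to 54695 RPKM in right legs and 104510 to 114270 RPKM in left legs of C57BL/6, and 40939 to 56983 RPKM in right legs and 79195 to 102840 RPKM in left legs of BALB/c. Of these 8, 5 fell and 2 rose in C57BL/6, and 3 fell and 1 rose in BALB/c. The rises were those of Des, which encodes desmin, in both strains and of Neb, which encodes nebulin, in C57BL/6, and after rescaling Des was not called in BALB/c and Neb fell in C57BL/6. Over all tested genes, 63.6% rose in C57BL/6 and 42.5% in BALB/c. Of 10 macrophage markers, 10 rose in C57BL/6, with sums of 92.0 to 185 RPKM in right legs and 9.86 to 13.2 RPKM in left legs, and 7 rose in BALB/c, with sums of 186 to 302 RPKM in right legs and 62.5 to 105 RPKM in left legs. Of 6 fibroblast markers, 6 rose in C57BL/6, while 2 rose and 2 fell in BALB/c. After rescaling, 10 macrophage and 5 fibroblast markers rose in C57BL/6. In BALB/c 6 macrophage markers then rose, while 0 fibroblast markers rose and 2 fell. The part of these cells in the changes described here was not tested. In bulk muscle, fewer cells of a type and less RNA per cell cannot be told apart. Within a leg, log2 values of libraries correlated at 0.985 to 0.991 in C57BL/6 and at 0.970 to 0.986 in BALB/c. BALB/c right library 2 had the highest RPKM sum, 598695 against 426429 to 510635 in the other libraries.

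A minority of potassium channel genes rose and more of them fell. In C57BL/6, 40 of the 98 genes passed the minimum of 0.1 RPKM over the 6 libraries of the table. Of these 9 rose, against 63.6% of all tested genes, and 13 fell, against 8.56%. In BALB/c, 43 were tested and 7 rose, against 42.5% of all tested genes, while 11 fell, against 7.67%. Their median relative change was -0.51 in C57BL/6 and -0.44 in BALB/c. After rescaling, 7 of 42 rose and 17 of 42 fell in C57BL/6, against 28.2% and 26.6% of all genes, and 4 of 43 rose and 16 of 43 fell in BALB/c, against 21.8% and 19.2%. The minimum is met by genes high in a single leg, so these counts describe only the genes that passed it. BALB/c left library 1 mattered most to the number of rises in BALB/c, which was 4 without it.

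Of 38 genes tested in both strains, 4 rose in both, against 40.7% of all genes tested in both. They were Kcnk5, Kcnn3, Kcnq5 and the low Kcng2, and made up 44.4% of the rises in C57BL/6 and 57.1% of those in BALB/c. A further 9 fell in both strains, against 5.20% of all genes, among them Kcna7, Kcnc1, Kcng4, Kcnh2, Kcnab1, Kcnj2, Kcnj12 and Kcnn1. The 9 made up 69.2% of the falls in C57BL/6 and 81.8% of those in BALB/c. None was called in opposite directions. Among the 25 genes, 16 reached the minimum of 0.5 RPKM in all 4 groups. Kcnk5 and Kcnn3 reached it in right legs of both strains and in no left legs, and Kcnab1 and Kcnh2 the reverse. Kcnab2 and Kcne4 reached it only in right legs of BALB/c, and Kcnk2 only in left legs of BALB/c. Just inside the minimum lay Kcne4, with a highest group mean of 0.583 RPKM, and Kcnab2, with 0.631 RPKM. Just outside it lay Kcnk6, with 0.454 RPKM, and Kcns1, with 0.415 RPKM.

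**Figure D1:**
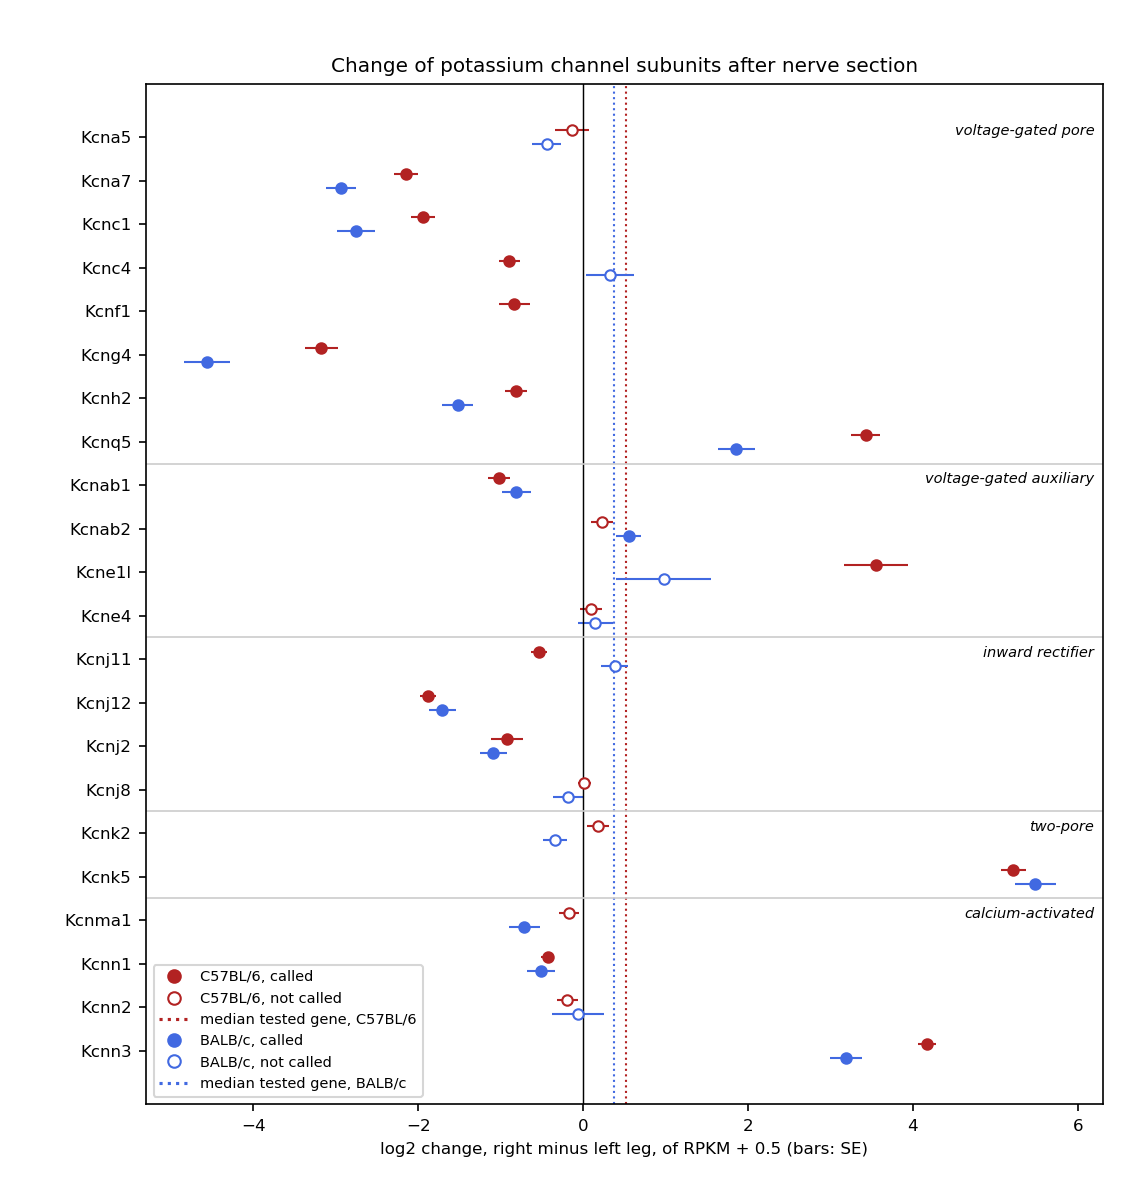
Log2 change, right minus left leg, of RPKM + 0.5 for 22 potassium channel genes ordered by class (points, bars are SE), in C57BL/6 (red) and BALB/c (blue). Filled points passed an adjusted p of 0.05, and dotted lines mark the median tested gene at 0.52 in C57BL/6 and 0.38 in BALB/c. Kcnk5 lies farthest right in both strains and Kcng4 farthest left, and Kcnf1 was tested in C57BL/6 only.

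The start regions of the 3 described genes that rose in both strains and of the 2 with the largest falls are shown so that the sequence at the start of genes with opposite changes can be set side by side. Each runs from 250 bases before to 50 bases after a start site of the RefSeq promoter table (build GRCm38.p6), 5′ to 3′ on the gene's strand. Capitals mark the E-box CANNTG, the letters bound by the basic helix-loop-helix family to which the muscle factors MyoD and myogenin belong.
Kcnk5 (chr14:20181733-20182032, minus strand): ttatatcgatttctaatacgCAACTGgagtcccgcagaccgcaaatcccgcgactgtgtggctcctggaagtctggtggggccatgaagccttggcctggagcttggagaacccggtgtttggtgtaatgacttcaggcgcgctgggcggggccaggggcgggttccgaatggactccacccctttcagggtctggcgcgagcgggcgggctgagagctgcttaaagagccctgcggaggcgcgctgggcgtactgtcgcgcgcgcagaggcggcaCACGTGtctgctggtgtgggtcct
Kcnn3 (chr3:89519914-89520213, plus strand): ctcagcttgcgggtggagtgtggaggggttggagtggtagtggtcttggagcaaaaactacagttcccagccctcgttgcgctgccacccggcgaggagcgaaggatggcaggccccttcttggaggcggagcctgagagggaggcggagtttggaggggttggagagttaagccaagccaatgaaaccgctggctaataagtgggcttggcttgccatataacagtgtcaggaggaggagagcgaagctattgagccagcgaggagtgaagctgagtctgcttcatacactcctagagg
Kcnq5 (chr1:21961893-21962192, minus strand): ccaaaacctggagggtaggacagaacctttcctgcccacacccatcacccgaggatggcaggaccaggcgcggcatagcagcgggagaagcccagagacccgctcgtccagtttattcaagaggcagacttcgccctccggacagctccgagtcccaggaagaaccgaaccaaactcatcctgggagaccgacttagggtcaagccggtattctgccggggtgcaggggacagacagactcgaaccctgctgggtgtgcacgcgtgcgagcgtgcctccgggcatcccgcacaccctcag
Kcng4 (chr8:119635631-119635930, minus strand): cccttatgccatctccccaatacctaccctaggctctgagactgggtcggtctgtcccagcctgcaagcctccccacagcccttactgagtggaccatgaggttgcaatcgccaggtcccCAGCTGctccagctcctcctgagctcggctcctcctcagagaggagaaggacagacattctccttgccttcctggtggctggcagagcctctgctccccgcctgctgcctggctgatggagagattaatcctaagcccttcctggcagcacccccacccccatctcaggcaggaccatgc
Kcna7 (chr7:45405710-45406009, plus strand): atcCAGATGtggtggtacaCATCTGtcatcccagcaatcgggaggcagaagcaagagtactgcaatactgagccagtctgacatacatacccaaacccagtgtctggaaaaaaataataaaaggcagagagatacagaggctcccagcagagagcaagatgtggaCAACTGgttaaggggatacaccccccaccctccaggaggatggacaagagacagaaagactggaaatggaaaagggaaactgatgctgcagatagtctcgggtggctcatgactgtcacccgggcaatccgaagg

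CANNTG reads the same on both strands. It stood 2 times in the Kcnk5 region, 1 time in that of Kcng4 and 3 times in that of Kcna7, and these letters were not found in the Kcnn3 region or in either of 2 Kcnq5 regions. Of the 25 genes above the minimum, 20 had an entry, with 29 regions in all. CANNTG stood in 21 of the 29 and in 72.3% of all 32817 mouse promoters of the table. CAGCTG, a case of CANNTG, stood in 9 of the 29 and in 16.3% of all promoters. By direction, CANNTG stood in 1 of 4 regions of described genes that rose in both strains, against 72.3% of all promoters. It stood in 10 of 11 regions of genes that fell in both. The 4 regions belong to Kcnk5, Kcnn3 and Kcnq5, and Kcnab1 and Kcnn1 have several of the 11, so regions are not separate genes. A match of letters is a description of the window and not a site of binding.

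Among two-pore channels, Kcnk5 was the only one of 14 listed genes that rose in both strains. Kcnk5 (mm9 chromosome 14, 20959280 to 21001004) encodes TASK-2, a background channel that opens at alkaline external pH. In C57BL/6 it had 25.1, 18.3 and 27.8 RPKM in right legs, against 0.126, 0.127 and 0.174 RPKM in left legs. Kcnk5 in BALB/c had 36.4, 23.1 and 42.2 RPKM in right legs, against 0.131, 0.427 and 0.208 RPKM in left legs. Every right library lay far above every left one, in which 8 to 26 reads were counted per library. The ratio of means was 167 in C57BL/6 and 133 in BALB/c. The change was 5.22 ± 0.15 in C57BL/6 (adjusted p = 6.19e-07, limma), 4.70 above the median gene. It was 5.48 ± 0.25 in BALB/c (adjusted p = 8.88e-06, limma), 5.11 above the median gene. With a pseudocount of 0.1 the changes were 6.60 in C57BL/6 and 6.62 in BALB/c. The strains did not differ detectably in this change (BALB/c minus C57BL/6, 0.27 with a 95% interval of -0.42 to 0.96, adjusted p = 0.630, limma).

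Kcnk2, which encodes the mechanosensitive channel TREK-1, averaged 0.379 ± 0.139 RPKM in right legs and 0.270 ± 0.0348 RPKM in left legs of C57BL/6. Kcnk2 in BALB/c averaged 0.438 ± 0.0820 RPKM in right legs and 0.688 ± 0.118 RPKM in left legs (SD, n = 3 each). It passed the test in neither strain. After rescaling it fell in BALB/c (-0.61, adjusted p = 0.00639, limma), and its change in C57BL/6 was 0.18 as deposited and -0.10 after it (adjusted p = 0.540, limma). The other 12 two-pore genes stayed below 0.5 RPKM in every group.

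Calcium-activated channels split by member. Kcnn3 rose strongly in both strains, Kcnn1 fell modestly, and the transcript of the large-conductance pore, Kcnma1, fell in BALB/c. Kcnn3 (mm9 chromosome 3, 89324086 to 89476416) encodes SK3, the small-conductance, apamin-sensitive channel known from denervated and immature muscle. In C57BL/6 it had 8.57, 9.45 and 10.7 RPKM in right legs, against 0.0900, 0.0560 and 0.0280 RPKM in left legs. Kcnn3 in BALB/c had 6.25, 4.47 and 6.98 RPKM in right legs, against 0.137, 0.203 and 0.240 RPKM in left legs. The legs did not overlap in either strain, and left libraries held 4 to 34 reads of the gene. Its mean was 165-fold higher in right legs of C57BL/6 and 30.5-fold higher in those of BALB/c. The change was 4.17 ± 0.11 in C57BL/6 (adjusted p = 4.03e-07, limma) and 3.19 ± 0.19 in BALB/c (adjusted p = 2.84e-05, limma). With a pseudocount of 0.1 these changes were 5.95 and 4.35.

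Kcnma1 encodes the pore of the BK channel, which opens on calcium and voltage together. It had 1.68, 1.69 and 1.59 RPKM in right legs of BALB/c, against 2.35, 3.97 and 2.94 RPKM in left legs. In C57BL/6 it had 1.43, 1.70 and 1.92 RPKM in right legs, against 1.88, 2.22 and 1.76 RPKM in left legs. The right libraries lay below the left ones in BALB/c and overlapped with them in C57BL/6. The change was -0.71 ± 0.19 in BALB/c (adjusted p = 0.0154, limma; 0.0502 without BALB/c right library 3) and -0.17 ± 0.12 in C57BL/6 (adjusted p = 0.242, limma). After rescaling it fell in C57BL/6 too (-0.73, adjusted p = 0.00170, limma). Strand was not used in counting, and 1016 of the exon bases of Kcnma1 overlap the antisense gene 4930519K11Rik in GENCODE vM21, so reads there cannot be told apart. Kcnk2, Kcnn1 and Kcnq5 likewise share 604, 132 and 237 exon bases with antisense genes.

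Kcnn1, which encodes SK1, averaged 4.39 ± 0.211 RPKM in right legs and 6.09 ± 0.273 RPKM in left legs of C57BL/6, and 3.65 ± 0.600 RPKM in right legs and 5.40 ± 0.794 RPKM in left legs of BALB/c. It fell in both strains (-0.43 in C57BL/6, adjusted p = 0.00163; -0.51 in BALB/c, adjusted p = 0.0384, limma). The BALB/c call was lost without BALB/c right library 2 (adjusted p = 0.0719) or 3 (0.125) or left library 2 (0.110) or 3 (0.106), and with no filter on low values (0.0522). Kcnn2, which encodes SK2, averaged 0.877 ± 0.222 RPKM in right legs and 1.06 ± 0.0603 RPKM in left legs of C57BL/6, and 0.869 ± 0.267 RPKM in right legs and 1.01 ± 0.723 RPKM in left legs of BALB/c. It passed the test in neither strain. After rescaling it fell in C57BL/6 (-0.66, adjusted p = 0.00316, limma), as it did without C57BL/6 right library 1 (-0.32, adjusted p = 0.0274). It shares 284 exon bases with the antisense gene A330093E20Rik and 323 with the antisense gene AC121957.1.

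**Figure D2:**
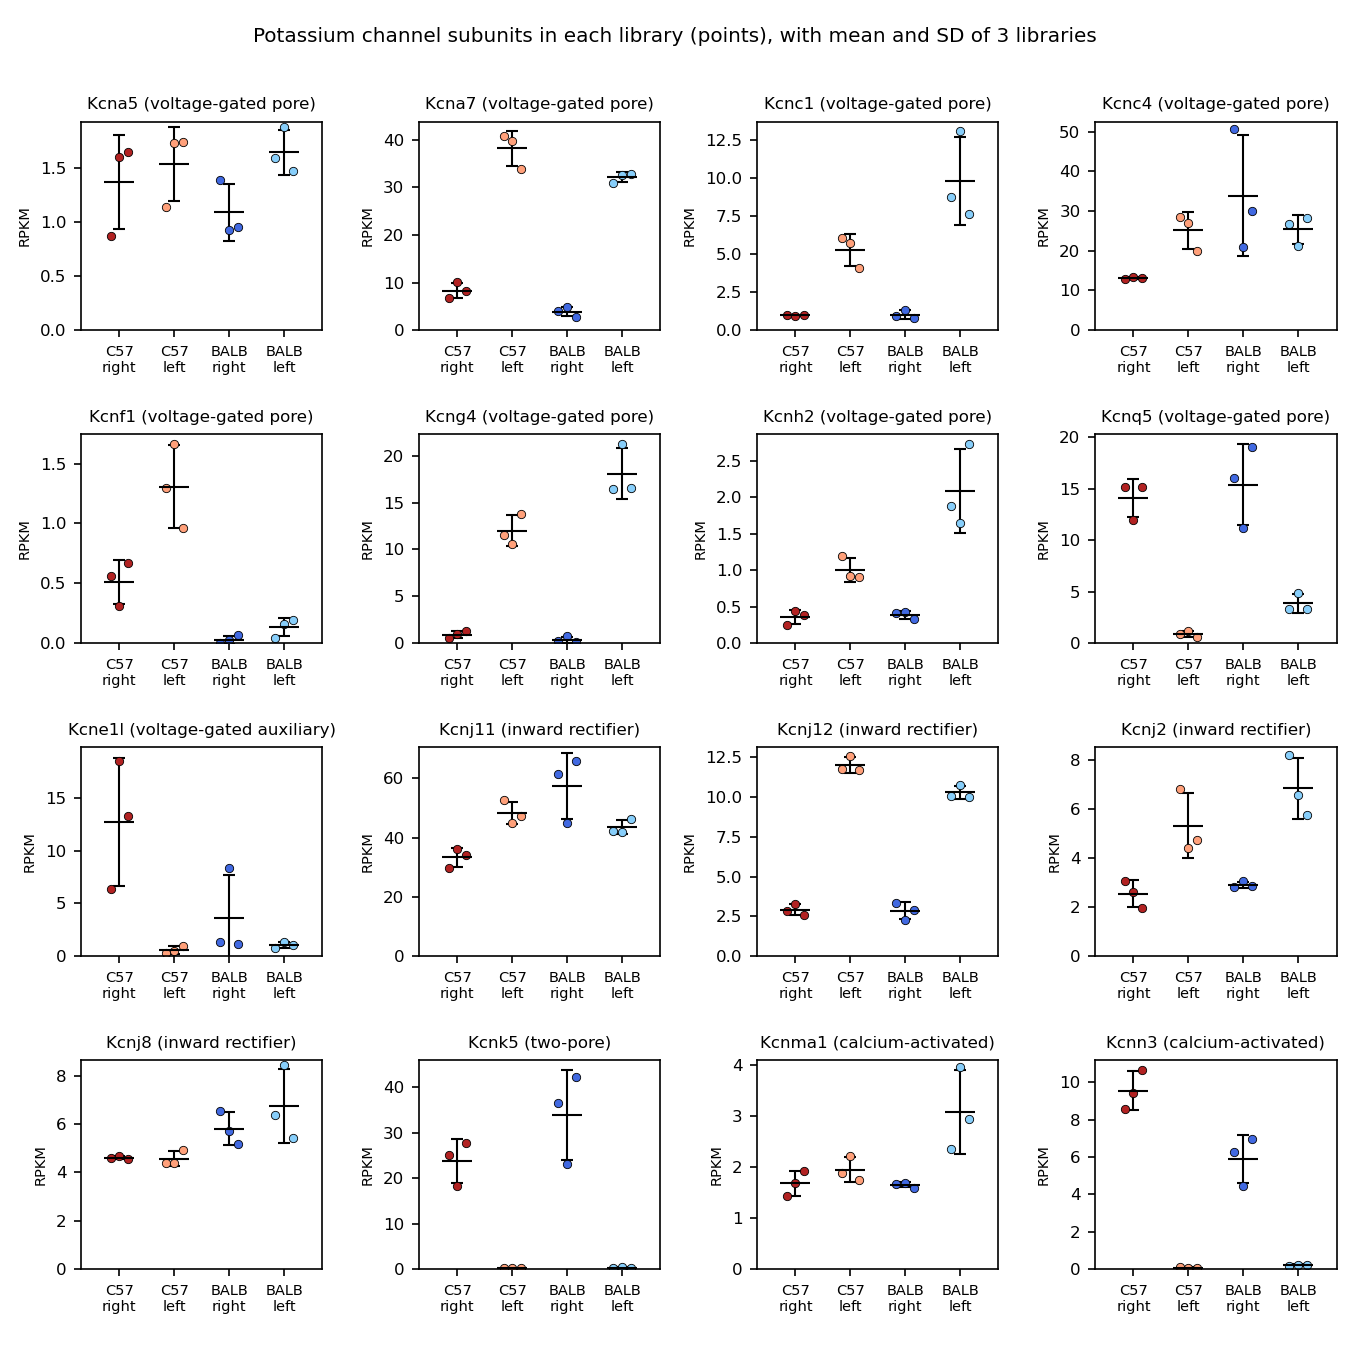
RPKM of 16 potassium channel genes in each library, grouped by class, with C57BL/6 right and left and BALB/c right and left legs along each panel (dots are libraries, bars are mean and SD, n = 3). Kcnk5 and Kcnn3 stand near 0 in left legs of both strains, whereas Kcna7, Kcng4 and Kcnj12 stand well above their right-leg values there.

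Among voltage-gated pores, Kcnq5 rose in both strains, while Kcna7, Kcnc1, Kcng4 and Kcnh2 fell in both. Kcnq5 (mm9 chromosome 1, 21388484 to 21952023) encodes Kv7.5, a slow, non-inactivating channel of the M-current type. Kcnq5 had 15.2, 11.97 and 15.2 RPKM in right legs of C57BL/6, against 0.855, 1.18 and 0.577 RPKM in left legs. Kcnq5 in BALB/c had 16.0, 11.2 and 19.0 RPKM in right legs, against 3.31, 4.89 and 3.35 RPKM in left legs. No right library overlapped a left one in either strain. The right legs of both strains reached like values, and the left legs of BALB/c stood above those of C57BL/6, a comparison across tables that were normalized separately and was not tested. Kcnq5 rose by 3.43 ± 0.18 in C57BL/6 (adjusted p = 4.46e-06, limma), a 16.2-fold ratio of means, and by 1.86 ± 0.23 in BALB/c (adjusted p = 0.000374, limma), a 4.001-fold ratio.

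Kcna7 (mm9 chromosome 7, 52661330 to 52666752), which encodes Kv1.7, was the second most abundant potassium channel transcript of left legs in both strains. It had 6.70, 10.0 and 8.22 RPKM in right legs of C57BL/6, against 40.8, 39.9 and 33.9 RPKM in left legs. Kcna7 in BALB/c had 3.98, 4.76 and 2.81 RPKM in right legs, against 31.0, 32.7 and 32.9 RPKM in left legs. Every right library was far below every left one. Kcna7 fell by 2.15 on the log2 scale in C57BL/6 (SE 0.14, adjusted p = 1.35e-05, limma) and by 2.94 in BALB/c (SE 0.18, adjusted p = 3e-05, limma). Kcna5, which encodes Kv1.5, had 0.872, 1.60 and 1.65 RPKM in right legs of C57BL/6, against 1.14, 1.72 and 1.73 RPKM in left legs. Kcna5 in BALB/c had 1.39, 0.923 and 0.950 RPKM in right legs, against 1.59, 1.87 and 1.47 RPKM in left legs. The legs overlapped in C57BL/6 and stood apart in BALB/c, and the test was passed in neither strain (-0.13, adjusted p = 0.583, in C57BL/6; -0.44, adjusted p = 0.0663, in BALB/c, limma). After rescaling it fell in both (-0.66, adjusted p = 0.0248, in C57BL/6; -0.82, adjusted p = 0.00389, in BALB/c), and in BALB/c also without right library 1 (adjusted p = 0.0408).

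Kv3 subunits form fast voltage-gated channels that shorten action potentials, and Kcnc1 and Kcnc4 encode Kv3.1 and Kv3.4. Kcnc1 had 1.02, 0.947 and 0.994 RPKM in right legs of C57BL/6, against 6.03, 5.72 and 4.08 RPKM in left legs. Kcnc1 in BALB/c had 0.929, 1.33 and 0.773 RPKM in right legs, against 8.75, 13.1 and 7.66 RPKM in left legs. All right libraries lay below all left ones. It fell in both strains, with a change of -1.94 ± 0.14 in C57BL/6 (adjusted p = 1.93e-05, limma) and -2.76 ± 0.23 in BALB/c (adjusted p = 8.65e-05, limma).

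Kcnc4 had 12.8, 13.3 and 13.2 RPKM in right legs of C57BL/6, against 28.6, 26.9 and 19.9 RPKM in left legs. Kcnc4 in BALB/c had 50.7, 21.1 and 30.0 RPKM in right legs, against 26.9, 21.2 and 28.2 RPKM in left legs. The 3 right libraries of C57BL/6 were close together and below the left ones, whereas those of BALB/c were spread on both sides of the left legs. Kcnc4 fell in C57BL/6 (-0.89 ± 0.13, adjusted p = 0.000569, limma). Its change in BALB/c was 0.33 ± 0.29 (adjusted p = 0.382, limma), -0.0048 without right library 1 and -0.19 after rescaling.

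Kcnf1 and Kcng4 encode the silent subunits Kv5.1 and Kv6.4, which join other Kv pores. Kcng4 (mm9 chromosome 8, 122147754 to 122159580) had 0.523, 0.942 and 1.26 RPKM in right legs of C57BL/6, against 11.6, 10.6 and 13.8 RPKM in left legs. Kcng4 in BALB/c had 0.178, 0.715 and 0.0820 RPKM in right legs, against 16.5, 21.2 and 16.5 RPKM in left legs. Left libraries were all above 10 RPKM and right ones all at or below 1.26 RPKM. Kcng4 fell by 3.17 on the log2 scale in C57BL/6 (SE 0.20, adjusted p = 1.05e-05, limma) and by 4.56 in BALB/c (SE 0.28, adjusted p = 2.87e-05, limma), the largest fall of a potassium channel gene in each strain. BALB/c right library 2 held 50 reads of the gene, against 13 and 6 in right libraries 1 and 3.

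Kcnf1 had 0.558, 0.308 and 0.671 RPKM in right legs of C57BL/6, against 1.30, 1.66 and 0.965 RPKM in left legs, and it fell (-0.84 ± 0.19, adjusted p = 0.00516, limma). Kcnf1 in BALB/c averaged 0.0293 RPKM in right legs and 0.133 RPKM in left legs and was below the minimum for testing. The gene had 28 to 149 reads per library of C57BL/6 and 0 to 17 reads per library of BALB/c.

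Kcnh2 encodes the ERG channel Kv11.1, which carries a repolarizing current in the heart. It had 0.247, 0.447 and 0.381 RPKM in right legs of C57BL/6, against 1.19, 0.923 and 0.902 RPKM in left legs. Kcnh2 in BALB/c had 0.409, 0.427 and 0.326 RPKM in right legs, against 1.88, 1.65 and 2.74 RPKM in left legs. The legs stood apart in both strains. Kcnh2 fell in C57BL/6 (-0.81 ± 0.13, adjusted p = 0.000944, limma) and in BALB/c (-1.52 ± 0.19, adjusted p = 0.000390, limma).

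Auxiliary subunits of voltage-gated channels changed unequally. Kcne1l (also called Kcne5, on the X chromosome) encodes a small single-pass subunit that modifies Kv7 and other pores. It had 6.35, 18.5 and 13.3 RPKM in right legs of C57BL/6, against 0.256, 0.518 and 0.957 RPKM in left legs. Kcne1l in BALB/c had 1.30, 8.36 and 1.19 RPKM in right legs, against 0.798, 1.30 and 1.01 RPKM in left legs. The legs were apart in C57BL/6, and in BALB/c right library 2 alone stood well above the left legs. Kcne1l rose in C57BL/6 (3.55 ± 0.39, adjusted p = 0.000126, limma). The BALB/c change was 0.98 ± 0.58 (adjusted p = 0.197, limma).

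The cytoplasmic beta subunit gene Kcnab1 averaged 0.229 ± 0.0960 RPKM in right legs and 0.973 ± 0.133 RPKM in left legs of C57BL/6, and 0.299 ± 0.111 RPKM in right legs and 0.905 ± 0.231 RPKM in left legs of BALB/c. It fell in both strains (-1.02, adjusted p = 0.000273, in C57BL/6; -0.81, adjusted p = 0.00634, in BALB/c, limma), and 118 of its exon bases overlap the antisense gene A330015K06Rik. A second beta subunit gene, Kcnab2, averaged 0.631 ± 0.127 RPKM in right legs and 0.271 ± 0.0797 RPKM in left legs of BALB/c, and 0.280 ± 0.00814 RPKM in right legs and 0.172 ± 0.109 RPKM in left legs of C57BL/6. Kcnab2 rose in BALB/c (0.55, adjusted p = 0.0157, limma) but not after rescaling (0.33, adjusted p = 0.114) or without left library 1 (adjusted p = 0.0574). Nor was it called when each library was rescaled to a common sum of RPKM (adjusted p = 0.0649). In C57BL/6 its change was 0.23 (adjusted p = 0.172, limma). Kcne4, which encodes an inhibitory subunit of Kv1 and Kv7 channels, averaged 0.336 ± 0.0917 RPKM in right legs and 0.283 ± 0.0966 RPKM in left legs of C57BL/6, and 0.583 ± 0.146 RPKM in right legs and 0.495 ± 0.278 RPKM in left legs of BALB/c. Its legs overlapped in both strains and it passed the test in neither, and after rescaling its change was -0.17 in C57BL/6 and -0.11 in BALB/c.

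Of the inward rectifiers, the classical Kir2 genes fell in both strains, and the pore of the ATP-sensitive (KATP) channel behaved differently in each. Kcnj12 encodes Kir2.2 and Kcnj2 encodes Kir2.1, which together carry most of the resting potassium conductance of muscle fibres. Kcnj12 had 2.85, 3.30 and 2.61 RPKM in right legs of C57BL/6, against 11.8, 12.6 and 11.7 RPKM in left legs. Kcnj12 in BALB/c had 3.35, 2.28 and 2.88 RPKM in right legs, against 10.1, 10.8 and 10.0 RPKM in left legs. Right and left libraries were widely apart in both strains. Kcnj12 fell by 1.88 on the log2 scale in C57BL/6 (SE 0.10, adjusted p = 4.28e-06, limma) and by 1.71 in BALB/c (SE 0.16, adjusted p = 0.000127, limma).

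Kcnj2 had 3.06, 2.62 and 1.94 RPKM in right legs of C57BL/6, against 6.82, 4.38 and 4.71 RPKM in left legs. Kcnj2 in BALB/c had 2.82, 3.05 and 2.84 RPKM in right legs, against 8.19, 6.54 and 5.74 RPKM in left legs. All right libraries were below all left ones in both strains. It fell in C57BL/6 (-0.93 ± 0.19, adjusted p = 0.00344, limma) and in BALB/c (-1.09 ± 0.16, adjusted p = 0.000967, limma).

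Kcnj11 (mm9 chromosome 7, 53352493 to 53356134) encodes Kir6.2, the KATP pore of the sarcolemma, and was the most abundant potassium channel transcript in all 4 groups. It had 29.6, 36.2 and 34.1 RPKM in right legs of C57BL/6, against 52.5, 45.0 and 47.3 RPKM in left legs. Kcnj11 in BALB/c had 61.4, 45.0 and 66.0 RPKM in right legs, against 42.2, 42.0 and 46.2 RPKM in left legs. The right libraries lay below the left ones in C57BL/6, and in BALB/c 2 of 3 right libraries lay above every left one. Kcnj11 fell in C57BL/6 (-0.53 ± 0.10, adjusted p = 0.00180, limma). Its change in BALB/c was 0.38 ± 0.17 (adjusted p = 0.0892, limma), 0.55 without right library 2 (adjusted p = 0.00689) and -0.14 after rescaling.

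Kcnj8 encodes Kir6.1, the KATP pore best known from vascular smooth muscle and pericytes. It had 4.61, 4.66 and 4.53 RPKM in right legs of C57BL/6, against 4.39, 4.38 and 4.91 RPKM in left legs. Kcnj8 in BALB/c had 6.53, 5.69 and 5.19 RPKM in right legs, against 6.36, 8.42 and 5.43 RPKM in left legs. The legs overlapped in both strains and the test was not passed (0.01 in C57BL/6, adjusted p = 0.894; -0.18 in BALB/c, adjusted p = 0.440, limma). After rescaling Kcnj8 fell in both strains (-0.64, adjusted p = 0.000443, in C57BL/6; -0.67, adjusted p = 0.0157, in BALB/c). The sum of 8 smooth muscle and pericyte markers was 51.5 to 70.3 RPKM in right legs and 64.5 to 70.4 RPKM in left legs of C57BL/6, and 71.2 to 91.3 RPKM in right legs and 88.9 to 111 RPKM in left legs of BALB/c; its part in the level of Kcnj8 was not tested.

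In summed RPKM, a measure per transcript length that allows genes to be added, the shares of the channel classes differed between the legs. The 98 genes summed to 160 ± 11.7 RPKM in right legs and 181 ± 11.8 RPKM in left legs of C57BL/6, and to 199 ± 34.4 RPKM in right legs and 195 ± 10.7 RPKM in left legs of BALB/c (SD, n = 3 each). Voltage-gated pores made up 37.2% of the sum in right legs and 53.4% in left legs of C57BL/6, and 37.3% in right legs and 56.9% in left legs of BALB/c. Two-pore channels made up 15.6% in right legs and 0.546% in left legs of C57BL/6, and 17.6% in right legs and 1.05% in left legs of BALB/c. Calcium-activated channels made up 10.6% in right legs and 5.23% in left legs of C57BL/6, and 6.32% in right legs and 5.19% in left legs of BALB/c. Inward rectifiers made up 27.2% in right legs and 39.0% in left legs of C57BL/6 but 34.9% in both legs of BALB/c. The shares follow from the genes above and were not tested.

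**Figure D3:**
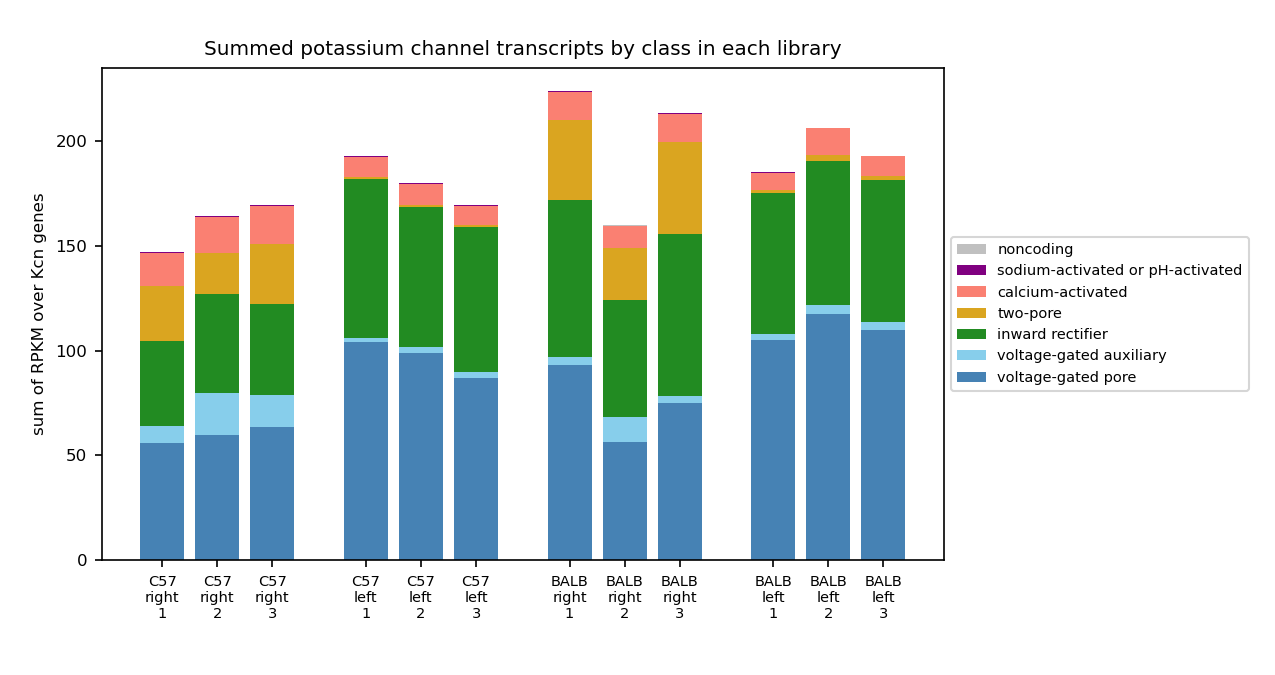
RPKM summed over potassium channel genes in each of 12 libraries, stacked by class, with right-leg libraries to the left of left-leg ones in each strain. The two-pore part is 19.6 to 28.9 RPKM in right legs and 0.976 to 0.994 RPKM in left legs of C57BL/6, and 24.5 to 43.8 RPKM in right legs and 1.34 to 2.84 RPKM in left legs of BALB/c.

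The order of levels differed between legs. In right legs of C57BL/6 Kcnj11 led and Kcnk5 came next, with no overlap between their libraries. Kcnq5, Kcnc4 and Kcne1l were among those that followed with overlapping libraries. In right library 2 Kcne1l had 18.5 RPKM and Kcnk5 had 18.3 RPKM. In left legs of C57BL/6 Kcnj11 led, followed by Kcna7 and Kcnc4 without overlap of libraries, and then by Kcnj12 and Kcng4, whose libraries overlapped. In right legs of BALB/c Kcnj11 led, and Kcnk5 and Kcnc4 followed with overlapping libraries. In left legs of BALB/c the order was Kcnj11, Kcna7, Kcnc4 and Kcng4, of which the last pair overlapped.

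Below 0.5 RPKM in every group, a few genes still passed the test, on few reads. Kcng2, a silent subunit, rose in both strains, by 0.54 in C57BL/6 (adjusted p = 0.00304) and 0.55 in BALB/c (adjusted p = 0.0120, limma), with 14 to 24 reads per right library and 1 to 7 per left library. In C57BL/6 Kcnn4, the intermediate-conductance calcium-activated channel of blood cells, rose on averages under 0.5 RPKM in both legs (0.48, adjusted p = 0.00306, limma). Kcnip3, a calcium-binding partner of Kv4 pores, passed at 0.30 in C57BL/6 (adjusted p = 0.0471, limma) but not after rescaling (0.379), nor without any single library of C57BL/6 except left library 2 (0.0795 to 0.149). The Kcnip3 call was also lost with a pseudocount of 0.1 (0.051) or 1 (0.0501). Kcns1, a silent subunit, fell in C57BL/6 (-0.66, adjusted p = 0.0118, limma). In BALB/c its change was -0.60 (adjusted p = 0.0688, limma), and it passed after rescaling (0.0469) and without left library 2 (0.00886). In BALB/c Kcnj3, a subunit of G-protein-gated Kir channels, fell (-0.44, adjusted p = 0.0288, limma), a call lost without any single library except left library 1 (0.0508 to 0.0740). The tables list different transcripts of Kcnj3. In the same strain the two-pore gene Kcnk13 and the Kv regulator Kcnrg rose (0.38, adjusted p = 0.0375, and 0.51, adjusted p = 0.0214, limma). Kcnk13 and Kcnrg were not called after rescaling (adjusted p of 0.118 and 0.0954). The Kcnk13 call was also lost without any single library except right library 3 (0.0502 to 0.112), and that of Kcnrg without left library 1 (0.0703) or 2 (0.0538). Rescaling to a common sum (0.0742) and eBayes without a trend (0.0507) removed the Kcnk13 call as well. Kcna1, Kcne3 and Kcnk6 passed the test in neither strain, and Kcne3 was tested in BALB/c only. In C57BL/6 the change of Kcna1 was 0.13 as deposited and -0.041 after rescaling, and that of Kcnk6 was 0.14 and -0.071. No read was counted in any of the 12 libraries for 6 genes: Kcna3, Kcnd3os, Kcnj1, Kcnk15, Kcns2 and Kcnv1.

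The strains differed in the size of the change for 5 of 38 potassium channel genes (BALB/c change minus C57BL/6 change, limma over all 12 libraries). The difference was positive for 1, against 1.76% of all 14165 genes, and negative for 4, against 4.33%. After median-of-ratios rescaling it was positive for 2, against 3.72% of all genes, and negative for 3, against 3.51%. Kcnj11 had the positive one, 0.91 ± 0.20 (adjusted p = 0.0213). Kcnq5 had a difference of -1.57 ± 0.31 (adjusted p = 0.0161), the rise being larger in C57BL/6. The Kcnn3 difference was -0.98 ± 0.22 (adjusted p = 0.0249). Kcng4, which fell further in BALB/c, had a difference of -1.39 ± 0.37 (adjusted p = 0.0499). That of Kcnq5 passed with every library left out in turn (adjusted p of 0.0148 to 0.0492).

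The Kcnj11, Kcnn3 and Kcng4 differences depended on single libraries, and that of Kcng4 also on several settings. The Kcnj11 call was lost without C57BL/6 right library 3 (adjusted p = 0.0525), left library 1 (0.0554) or left library 3 (0.0536), and on rescaling to a common sum (0.120). The Kcnn3 call was lost without C57BL/6 right library 2 (0.0623) or 3 (0.0730), left library 1 (0.0502), 2 (0.0596) or 3 (0.0704), or BALB/c left library 2 (0.0503) or 3 (0.0572). For Kcng4 it was lost without any of C57BL/6 right libraries 2 and 3, all 3 left libraries of either strain, and BALB/c right libraries 1 and 3 (adjusted p of 0.0508 to 0.122), after median-of-ratios rescaling (0.0682), with a pseudocount of 0.1 (0.0733), with no filter on low values (0.0665) and with eBayes without a trend (0.0514). Kcnc4 had a difference of 1.22 ± 0.36 (adjusted p = 0.0639), which passed after rescaling (0.0334) and without BALB/c right library 2 (0.0128). Kcne1l had a difference of -2.57 ± 0.79 (adjusted p = 0.0758), which passed on rescaling to a common sum (0.0438) and without BALB/c right library 2 (0.00497). Leaving out C57BL/6 right library 2 or 3 or any left library of C57BL/6 brought the negative count down to 1, and leaving out BALB/c left library 2 or 3 brought it down to 2. The positive count was 0 without C57BL/6 right library 3, left library 1 or left library 3.

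A list of 34 further genes of potassium handling covered partners of the channels, the sodium-potassium pump and its FXYD regulators, cotransporters, HCN channels and the muscle chloride channel. Of 30 tested in C57BL/6, 14 rose, against 63.6% of all tested genes, and 6 fell, against 8.56%. Of 30 tested in BALB/c, 9 rose, against 42.5%, and 7 fell, against 7.67%. After rescaling 10 rose and 11 fell in C57BL/6, against 28.2% and 26.6% of all genes, and 4 rose and 16 fell in BALB/c, against 21.8% and 19.2%. Their median relative change was -0.22 in C57BL/6 and -0.61 in BALB/c. Of 29 tested in both strains, 9 rose in both, against 40.7% of all genes tested in both, 5 fell in both, against 5.20%, and 1, Atp1b4, was called in opposite directions.

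Partners of the channels above changed with different signs. Lrrc38, a gamma subunit that lets BK channels open at more negative voltages, fell in both strains. It had 0.924, 0.975 and 0.951 RPKM in right legs of C57BL/6, against 13.8, 13.9 and 18.5 RPKM in left legs. Lrrc38 in BALB/c had 1.30, 1.08 and 0.893 RPKM in right legs, against 15.5, 15.1 and 14.7 RPKM in left legs. Right and left libraries stood far apart, and the change was -3.45 ± 0.12 in C57BL/6 (adjusted p = 1.22e-06, limma) and -3.30 ± 0.15 in BALB/c (adjusted p = 8.57e-06, limma). Abcc8 encodes SUR1, a sulphonylurea receptor that pairs with Kir6.2, and lies next to Kcnj11 on chromosome 7. It averaged 2.92 ± 0.308 RPKM in right legs and 0.749 ± 0.147 RPKM in left legs of C57BL/6, and 5.59 ± 1.42 RPKM in right legs and 0.831 ± 0.247 RPKM in left legs of BALB/c. It rose in both strains (1.45, adjusted p = 3.77e-05, in C57BL/6; 2.19, adjusted p = 0.000164, in BALB/c, limma). The more abundant receptor gene, Abcc9, which encodes SUR2, averaged 29.0 ± 1.54 RPKM in right legs and 27.3 ± 2.67 RPKM in left legs of C57BL/6, and 17.0 ± 4.003 RPKM in right legs and 23.5 ± 2.86 RPKM in left legs of BALB/c. It passed the test in neither strain (0.08, adjusted p = 0.421, in C57BL/6; -0.47, adjusted p = 0.0666, in BALB/c, limma), but after rescaling it fell in both (-0.62 in C57BL/6 and -0.98 in BALB/c), and it fell in BALB/c without right library 1 (-0.65, adjusted p = 0.0179).

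Clcn1, the chloride channel that carries most of the resting conductance of muscle fibres, averaged 13.8 ± 1.58 RPKM in right legs and 43.0 ± 0.0440 RPKM in left legs of C57BL/6, and 13.3 ± 4.03 RPKM in right legs and 55.8 ± 5.14 RPKM in left legs of BALB/c. It fell in both strains (-1.61, adjusted p = 5.99e-06, in C57BL/6; -2.06, adjusted p = 0.000153, in BALB/c, limma). Hcn2, a hyperpolarization-activated cation channel gene, averaged 0.165 ± 0.0294 RPKM in right legs and 1.09 ± 0.0731 RPKM in left legs of C57BL/6, and 0.112 ± 0.0710 RPKM in right legs and 0.854 ± 0.332 RPKM in left legs of BALB/c. It too fell in both (-1.26, adjusted p = 2.2e-05, in C57BL/6; -1.12, adjusted p = 0.00242, in BALB/c, limma).

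For the sodium-potassium pump, which returns potassium to the fibre, the beta subunit gene Atp1b2 averaged 65.5 ± 3.79 RPKM in right legs and 143 ± 11.5 RPKM in left legs of C57BL/6, and 65.5 ± 29.2 RPKM in right legs and 139.9 ± 30.0 RPKM in left legs of BALB/c. It fell in C57BL/6 (-1.12, adjusted p = 2.19e-05) and in BALB/c (-1.17, adjusted p = 0.0194, limma; 0.0554 without left library 1 and 0.0678 without left library 3). The pump regulator genes Fxyd2 and Fxyd6 lie within 1 stretch of chromosome 9, and both rose in both strains. Fxyd2 had 63.6, 24.6 and 65.1 RPKM in right legs of C57BL/6, against 0.478, 1.16 and 0.578 RPKM in left legs. Fxyd2 in BALB/c had 4.44, 11.6 and 11.0 RPKM in right legs, against 2.19, 4.40 and 3.03 RPKM in left legs. The legs were far apart in C57BL/6 and close in BALB/c, where right library 1 was just above left library 2. Fxyd2 changed by 5.29 ± 0.39 in C57BL/6 (adjusted p = 1.89e-05, limma) and 1.30 ± 0.37 in BALB/c (adjusted p = 0.0195, limma), where the call was lost after rescaling (0.106) and without right library 2 (0.0678) or 3 (0.0702) or left library 1 (0.0639) or 3 (0.0543). Fxyd6 averaged 37.2 ± 15.0 RPKM in right legs and 4.37 ± 0.326 RPKM in left legs of C57BL/6, and 51.8 ± 8.01 RPKM in right legs and 27.8 ± 9.45 RPKM in left legs of BALB/c. It rose by 2.88 in C57BL/6 (adjusted p = 3.66e-05) and by 0.93 in BALB/c (adjusted p = 0.0156, limma). The BALB/c call was lost after rescaling (0.195), on rescaling to a common sum (0.0683) and without right library 2 (0.0519).

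The difference between the strains was called for 6 of the 29 genes tested in both, Fxyd2 (-3.996 ± 0.60, adjusted p = 0.00458) and Fxyd6 (-1.95 ± 0.39, adjusted p = 0.0162) among them. Another 3, named after their values were seen, were Atp1b1 (-2.81, adjusted p = 0.00437), Atp1b4 (-2.32, adjusted p = 0.0189) and Slc12a4 (-1.23, adjusted p = 0.0314). All 6 differences were negative, against 4.33% of all genes with a negative one and 1.76% with a positive one.

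**Figure D4:**
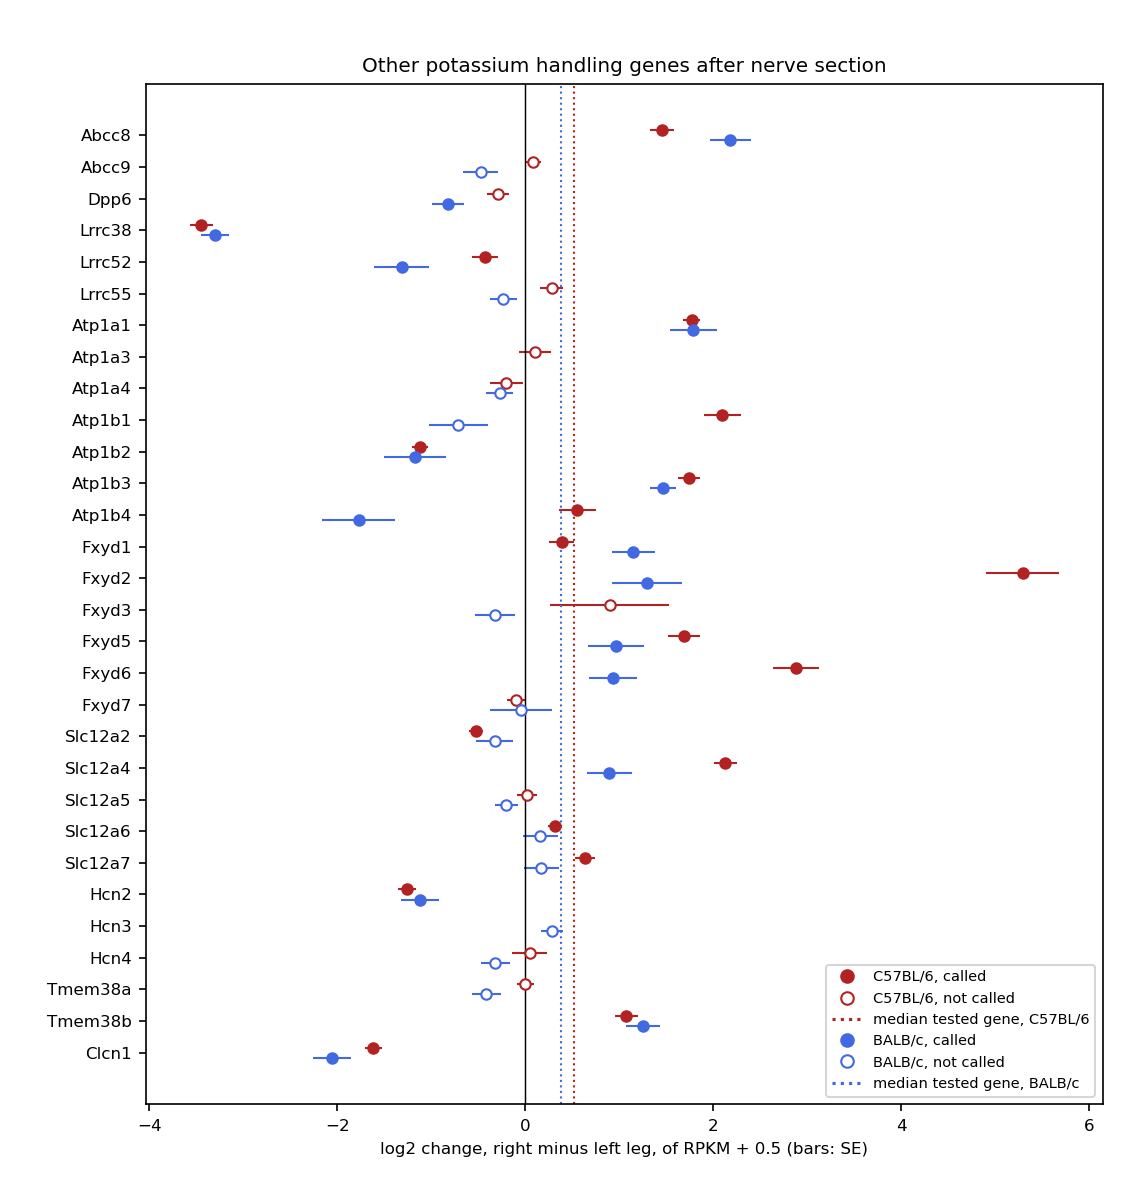
Log2 change, right minus left leg, of RPKM + 0.5 for tested genes of the list of other potassium handling genes (points, bars are SE), in C57BL/6 (red) and BALB/c (blue), with filled points past an adjusted p of 0.05 and dotted lines at the median tested gene. Lrrc38 lies farthest left in both strains, and Fxyd2 lies farthest right in C57BL/6 at 5.29.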

How the data were processed

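Polyadenylated RNA of 12 gastrocnemius libraries was grouped by strain and leg from the labels. The authors deposited RPKM values in 2 tables, 1 per strain, whose column names say FPKM. Per the file headers, the counting was done by HOMER over exons with mm9 annotation, without regard to strand and with a single transcript for each gene. HISAT2, HOMER, DESeq2, GRCm38 and mm10 are named, with no version or role, in the submitters' processing notes. The transcript Length column was used as deposited by the authors. Since each table was scaled on its own, legs were compared inside 1 table. Of the 98 genes, 8 have another transcript in each table, and of these only Kcnj3 has a call in the text, within BALB/c. Results of 4 genes are not reported here.

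The scaling total of each library was chosen so that RPKM times length and total came nearest to whole reads. Of the 15581 to 16830 nonzero values per library precise enough to judge, 99.9% to 100.0% then lay within 0.1 read of a whole number. That share is partly set by this choice. The rounded values were taken as reads. On these reads limma-voom called 9366 genes higher and 1261 lower in C57BL/6, and 6371 higher and 1210 lower in BALB/c. Reads of PCR-amplified libraries without molecular identifiers are not independent molecules.

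The test, two-sided, took every gene whose mean over 6 libraries reached 0.1 RPKM and ran on log2(RPKM + 0.5) with limma 3.58.1 (lmFit, eBayes with a trend) in R 4.3.3. Benjamini-Hochberg adjustment ran over all tested genes, with a call at an adjusted p under 0.05. The strain difference was a contrast over all 12 libraries. The fit was tested on simulated data with as many raised as lowered genes, which did not hold the overall shift of these data. Tables and figures used pandas 2.3.3 and matplotlib 3.10.9 in Python 3.11.15. Members and lists were chosen with earlier results of these data known. Named with each library were 16 fixed genes where they reached 0.5 RPKM, and per strain and direction up to 8 called genes with at least 1 RPKM in a leg, no overlap of the legs and the largest relative change. From the other potassium handling list Abcc8, Abcc9, Clcn1 and the 5 largest changes called in both strains were named. Antisense overlaps were read from GENCODE vM21 and promoters from RefSeq tables.

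Alternatives were pseudocounts of 0.1 and 1, a minimum of 1 RPKM or none, median-of-ratios factors or a common sum (TPM) for rescaling, a replicate block, eBayes with no trend, limma-voom on recovered reads, and leaving out each library.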

Additional observations from a re-analysis of the deposited data

Results flagged for a closer look

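Differences between the strains in the change between the legs (BALB/c change minus C57BL/6 change, log2 scale, limma over 12 libraries) stood out for 6 of the genes named above. For potassium channel genes they were 0.91 for Kcnj11 (adjusted p = 0.0213), -1.57 for Kcnq5 (adjusted p = 0.0161), -0.98 for Kcnn3 (adjusted p = 0.0249) and -1.39 for Kcng4 (adjusted p = 0.0499). For pump regulators they were -3.996 for Fxyd2 (adjusted p = 0.00458) and -1.95 for Fxyd6 (adjusted p = 0.0162). With a pseudocount of 0.1 the Kcnn3 difference was -1.60, and on recovered reads it was -2.49. In left legs Kcnq5 had 3.31 to 4.89 RPKM in BALB/c and 0.577 to 1.18 RPKM in C57BL/6, and Fxyd2 had 2.19 to 4.40 RPKM in BALB/c and 0.478 to 1.16 RPKM in C57BL/6. These levels come from tables normalized separately and were not tested against each other.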

How the results depend on the processing

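Among the potassium channel genes named above, rescaling by median-of-ratios factors turned the sign of Kcne4 (-0.17), Kcnj8 (-0.64) and Kcnk2 (-0.10) in C57BL/6. There it also turned that of Kcna1 (-0.041) and Kcnk6 (-0.071), and that of the partner gene Abcc9 (-0.62). In BALB/c it turned that of Kcnc4 (-0.19), Kcne4 (-0.11) and Kcnj11 (-0.14). None of these changes had been called before rescaling. The strain difference of Kcnk5 turned to -0.0044 under rescaling to a common sum and -0.17 on recovered reads. With each library left out, the change ranged from -0.28 to 0.077 for Kcna5 and from -0.013 to 0.062 for Kcnj8 in C57BL/6, and from -0.0048 to 0.62 for Kcnc4 and from -0.31 to 0.30 for Kcnn2 in BALB/c. Rises in BALB/c numbered 7 as reported, 3 with a filter of 1 RPKM, which left 19 of the potassium channel genes, 4 after median-of-ratios rescaling and 4 to 7 with a library left out. Falls in BALB/c numbered 8 to 12 with a library left out. Positive strain differences numbered 1 as reported, 2 after median-of-ratios rescaling, 0 under the common sum, 2 with the replicate block and 0 to 2 with a library left out, and negative ones, 4 as reported, 1 to 6. Apart from settings that left out a library, 648 of 694 values of single genes kept direction and side of the threshold, and with a library left out 469 of 534 did. The cause of these shifts was not tested.

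Whether libraries with the same replicate number are paired could not be settled. Their deviations from the leg mean correlated at 0.18, 0.10 and 0.01 in C57BL/6 and at 0.01, 0.07 and 0.24 in BALB/c. Of the 6 numbers, 4 correlated best with their own. With 3 libraries per leg, such values can neither show nor exclude that legs with the same replicate number share a mouse. With the number as a replicate block, the BALB/c calls of Kcnn1 (adjusted p = 0.0836), Kcnj3 (0.0611) and Kcnk13 (0.0690), the C57BL/6 call of Kcnip3 (0.0673) and the Kcnn3 strain difference (0.0541) were lost. The BALB/c change of Kcns1 (adjusted p = 0.0360) and the strain differences of Kcnc4 (0.0392) and Kcne1l (0.0383) passed with the block and not without it. With 3 libraries per group, genes at a few reads per library are measured with little precision.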
